A study of Xenopus tropicalis with 26 samples.

Results

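Embryos of the frog Xenopus tropicalis that carried injected Cdkn1a mRNA were compared with wildtype embryos at stage 8. The comparison was fixed by its labels and rests on 4 of the 26 RNA libraries in the series, with 2 libraries of each kind. Each library was made from polyadenylated RNA of whole embryos with a stranded kit, and the deposited values are fragment counts per gene. The series also holds wildtype embryos at stages 6 and 7, embryos with Cdkn1a mRNA at stage 7, and stage 7 and stage 8 embryos injected with an E2f1 morpholino (MO, an antisense oligomer directed at the E2f1 transcript) alone or with a further mRNA. The results below use 7 of the 13 groups: wildtype at stages 6, 7 and 8, Cdkn1a mRNA at stages 7 and 8, and, at stage 8, the MO alone and the MO with Cdkn1a mRNA.

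The controls are labelled wildtype and untreated, so injection itself and the Cdkn1a mRNA cannot be told apart. How much mRNA was injected, when, and how many embryos went into a library are not given here. Separate clutches are not stated for the 2 libraries of any group. Each p-value of the main fit therefore measures the spread between libraries of the same group, pooled over all 26 libraries, and that spread may be technical. In RNA from whole embryos, fewer cells of a type and less RNA per cell cannot be told apart, and a longer poly(A) tail cannot be told apart from more RNA.

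Cdkn1a, also called p21, is a protein of the Cip/Kip family that binds complexes of cyclins with cyclin-dependent kinases (Cdks) and inhibits them. Early frog embryos divide rapidly and in near synchrony on RNA and protein stored in the egg. At the mid-blastula transition the cycle lengthens, the zygotic genome is transcribed broadly, and the first genes that set up the germ layers and the body axes come on, while part of the maternal RNA is removed.

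The 4 libraries held between 17542732 and 18000305 counted fragments, within the range of 14071614 to 19032710 over all 26. Levels are given as CPM, counts scaled to a common library total and not corrected for gene length, and are compared only within a gene. Maternal markers of the embryo were present in all 4 libraries, with dazl, a germ plasm RNA, at 127 to 133 CPM and h1-8, the maternal linker histone, at 726 to 779 CPM. The summed level of 56 maternal oocyte and germ plasm genes was 8018 and 8035 CPM in wildtype and 8173 and 8127 CPM with Cdkn1a mRNA. Of the markers of differentiated tissue, ovarian follicle and testis, the summed level of each list was at most 2.19 CPM in these 4 libraries, and hba1, ins, prph and cyp19a1 were at 0. Among 5 blood and immune markers, ptprc stood at 68.9 to 78.6 CPM and mpo and hbg2 at 0. The 2 libraries of the stage 8 E2f1 MO group stood apart from each other. Their chi-square per gene was 13.1, against 1.83 to 2.32 in the other 12 groups. Through the pooled spread this pair enters every p-value of the main fit, also where its group is not compared. The stage 8 comparison was not fitted without this pair alone. The fit of only the groups compared holds neither of its libraries and called 555 genes higher and 685 lower at stage 8. Main counts of comparisons that include this pair are given with the values without each library or with their range. Only part of the genes named from those comparisons have such values.

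The injected transcript was checked first. Cdkn1a (chromosome 2, 54652721 to 54677604, minus strand, in the authors' Xentr10 annotation) was at 5.26 and 5.48 CPM in stage 8 wildtype and at 284 and 288 CPM with Cdkn1a mRNA. Its log2 fold change was 5.73 ± 0.09 (SE, n = 2 per group; adjusted p = 1.8e-32, edgeR quasi-likelihood test with Benjamini-Hochberg adjustment). Over the series, the 8 libraries that were given Cdkn1a mRNA ranged from 236 to 303 CPM and the 18 others from 1.08 to 6.09 CPM, with no overlap. The counts do not separate injected from embryonic transcripts. The level of e2f1, which encodes an activating E2F transcription factor, was 404 and 400 CPM in wildtype and 381 and 406 CPM with Cdkn1a mRNA, and the groups overlapped (log2 −0.03 ± 0.04, adjusted p = 0.76).

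Small called changes went both ways, and large ones were mostly falls. Of 12883 genes tested, 801 were called at an adjusted p under 0.05 (6.22%), of which 362 were higher with Cdkn1a mRNA (2.81%) and 439 were lower (3.41%). Changes of 2-fold or more were called for 253 genes lower (1.96%) and 43 higher (0.334%), and the median log2 fold change over all tested genes was 0.004. Leaving out any 1 of the 4 libraries lowered these counts. Without Cdkn1a replicate 1, 237 of the 439 lower calls and 155 of the 362 higher calls were still made, and without Cdkn1a replicate 2 these were 281 and 165. Without wildtype replicate 1, 281 lower and 154 higher calls were still made, and without wildtype replicate 2, 286 and 165.

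**Figure D1:**
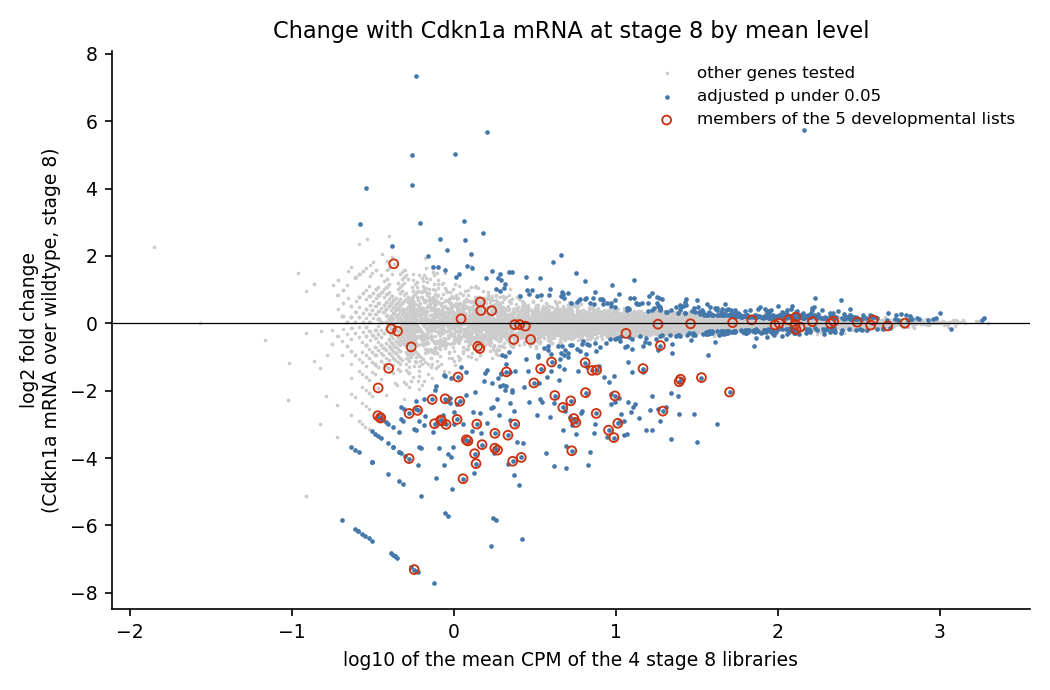
Each point is 1 of 12883 tested genes: the horizontal axis is the log10 of its mean CPM over the 4 stage 8 libraries and the vertical axis its fitted log2 fold change (Cdkn1a mRNA over wildtype). Blue marks the 801 called genes and red circles the 93 tested members of 5 developmental lists, 57 of which were called lower; the diagonal rows near −6 and beyond are genes with no count in 1 group, whose fitted values are not bounds.

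The 12 genes named for the largest falls were near 0 in stage 7 wildtype. Pou5f3.1, a frog relative of the mammalian pluripotency factor Oct4, was at 5.203 and 4.51 CPM in wildtype and 0.218 and 0.112 CPM with Cdkn1a mRNA (log2 −4.81 ± 0.43, adjusted p = 3.8e-10). Rhov, a small GTPase, was at 13.5 and 12.3 CPM in wildtype and 0.818 and 1.01 CPM with Cdkn1a mRNA (log2 −3.81 ± 0.22, adjusted p = 3.1e-15). Both wildtype libraries lay above both Cdkn1a libraries for these and for the other 10 of the 12 largest falls, as the rule by which the 12 were picked requires.

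Stx19, a syntaxin that acts in membrane fusion, was at 10.6 and 8.04 CPM in wildtype and at 0.709 and 0.224 CPM with Cdkn1a mRNA (log2 −4.29 ± 0.32). Irx1, an Iroquois homeobox factor, went from 10.2 and 9.77 CPM to 0.982 and 0.448 CPM (log2 −3.78 ± 0.27). For tfap2a, which encodes the AP-2 factor of epidermis and neural crest, wildtype held 4.498 and 4.23 CPM and Cdkn1a mRNA 0.218 and 0.2802 CPM (log2 −4.09 ± 0.43). The antagonists in this group bind ligands outside the cell: fst encodes follistatin, which binds activin, and sfrp2 a Frizzled-related protein that binds Wnt. Fst was at 2.33 and 2.88 CPM in wildtype and at 0 and 0.2802 CPM with Cdkn1a mRNA (log2 −4.17 ± 0.57), and sfrp2 at 4.99 and 4.83 against 0.164 and 0.448 CPM (log2 −3.98 ± 0.43). Dlx5, a homeobox factor, fell by 3.87 ± 0.52 on the log2 scale, lpar6, a lysophosphatidic acid receptor, by 3.86 ± 0.46, and atp1b2, a sodium pump subunit, by 4.44 ± 0.58.

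Too few fragments remained with Cdkn1a mRNA to fit a fold for a pair of them. Tat, the liver enzyme tyrosine aminotransferase in adults, had 124 fragments in the 2 wildtype libraries and 1 with Cdkn1a mRNA, a ratio of 122 with a 95% counting interval of 21.4 to 4843. Chrd.1, which encodes chordin, an antagonist of bone morphogenetic proteins (BMPs), had 81 fragments in wildtype and 3 with Cdkn1a mRNA, a ratio of 26.5 with an interval of 8.75 to 131. These intervals cover counting error only. None of the 12 lost its call when any 1 of the 4 libraries was left out, but several folds moved. Fst ranged from −3.19 without Cdkn1a replicate 1 to −8.49 without replicate 2, which left 1 Cdkn1a library with no fragment, so that value is no bound. Over the 4 fits lpar6 ranged from −5.75 to −3.06, stx19 from −5.34 to −3.71, atp1b2 from −5.37 to −3.87, sfrp2 from −4.85 to −3.44 and irx1 from −4.46 to −3.34.

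The rises were smaller, and their leading genes were low in every group. Socs2, a suppressor of cytokine signalling, was at 0.271 and 0.217 CPM in wildtype and at 2.29 and 1.85 CPM with Cdkn1a mRNA (log2 3.05 ± 0.49, adjusted p = 3.3e-05). Chn2, which encodes beta-chimaerin, a GTPase-activating protein for Rac, was at 1.84 and 1.79 CPM against 6.76 and 7.96 CPM (log2 2.01 ± 0.20, adjusted p = 4e-09). In both genes the groups did not overlap, again by the rule. Tiparp, a poly(ADP-ribose) polymerase, rose from 1.68 and 1.95 to 6.82 and 5.94 CPM (log2 1.81 ± 0.24). Neurog1, a proneural factor, rose by 1.53 ± 0.28 on the log2 scale, nradd, a protein with a death domain, by 1.49 ± 0.20, and pdlim4, a PDZ and LIM domain protein, by 1.35 ± 0.24. These 6 genes kept their call when any 1 library was left out.

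Another 5 of the largest rises did not. Rab3il1, an exchange factor for Rab proteins, had a log2 fold change of 2.07 ± 0.44 and lost its call without wildtype replicate 1 (log2 1.78). The factor nfia (1.56 ± 0.35) lost it without Cdkn1a replicate 2 (1.28) and without wildtype replicate 1 (1.47). Rufy2 (1.46 ± 0.34) lost it without Cdkn1a replicate 2 (1.24) and without wildtype replicate 2 (1.18). The BMP receptor gene bmpr1b (1.33 ± 0.34) kept its call only without Cdkn1a replicate 2, with values of 1.04 to 1.44 in the other 3 fits, and the tetraspanin gene cd81 (1.33 ± 0.34) kept it only without wildtype replicate 2, with 0.98 to 1.38 in the others.

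The gene lists of germ-layer and axis formation moved down almost without exception among their called members. The 5 lists together named 143 genes, of which 121 were in the count table and 93 passed the filter on low counts. Of these 93, 57 were called lower and 1 higher (62.4%, against 6.22% of all tested genes), with a median log2 fold change of −1.66. A gene that is silent before stage 8 could pass the filter only through libraries in which it is high, so these counts describe the tested members and are not support for the lists. In the 4 fits that left out 1 library, 46 to 50 members were called lower and none higher.

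**Figure D2:**
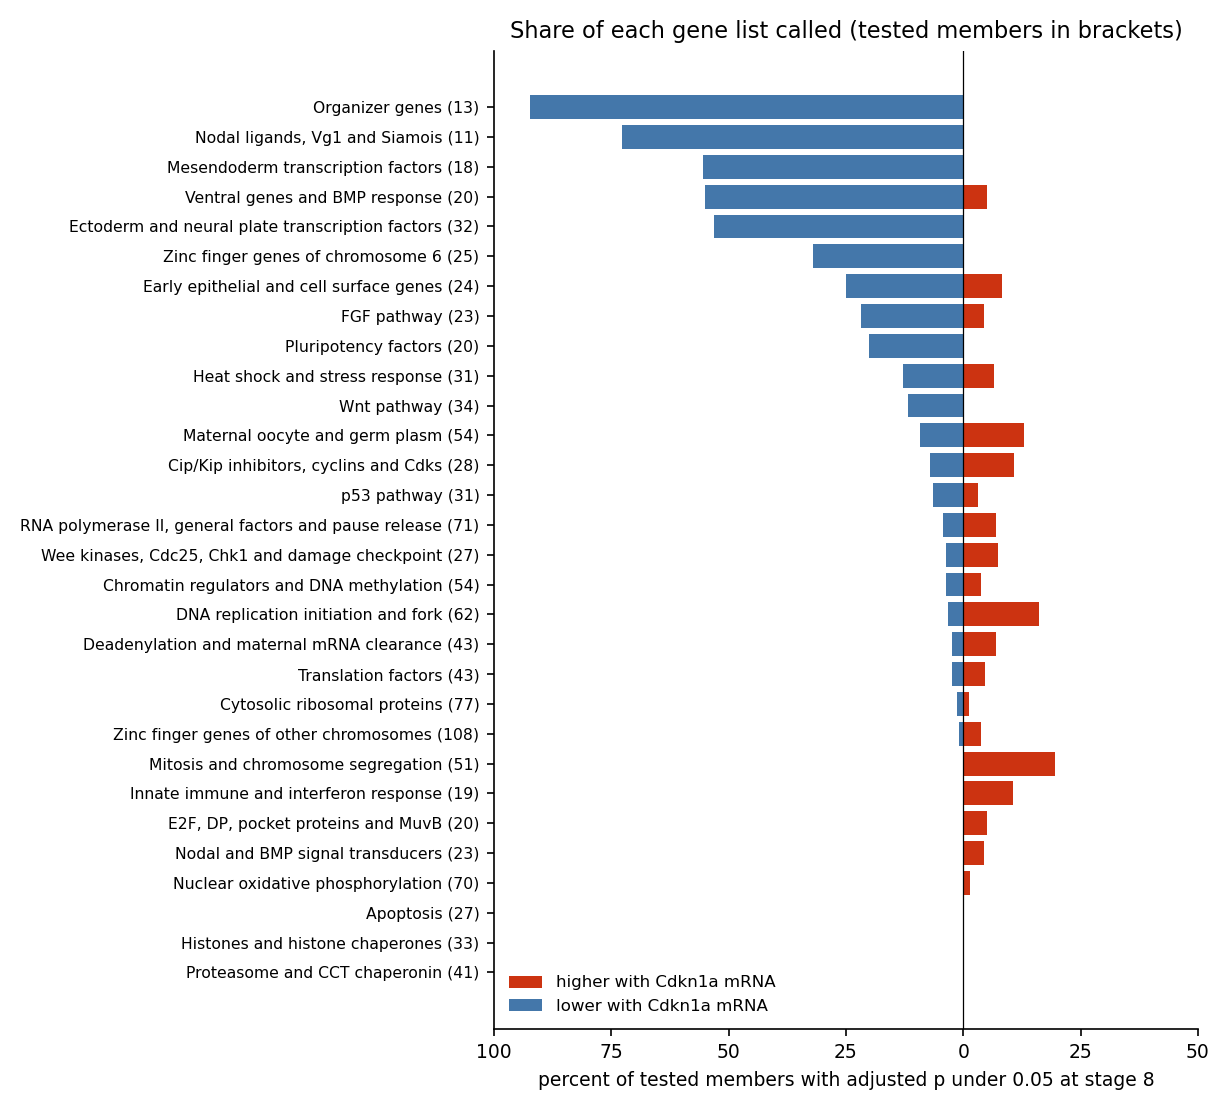
Bars give the percent of tested members of each gene list that were called at stage 8, to the left (blue) when lower with Cdkn1a mRNA and to the right (red) when higher; the number of tested members stands in brackets. The 5 lists of developmental genes head the plot with 17 of 32 to 12 of 13 members lower, and the mitosis list has 10 of 51 higher and none lower.

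Among secreted signals of the Nodal and Vg1 type and the homeobox gene Siamois, which together start mesendoderm and the dorsal organizer, 8 of 11 tested members were lower and none higher, with a median of −1.40. Nodal3.1 was at 15.9 and 16.3 CPM in wildtype and at 4.09 and 3.14 CPM with Cdkn1a mRNA (log2 −2.15 ± 0.16, adjusted p = 3.5e-12). Sia1, a homeobox factor switched on by maternal Wnt signalling, was at 6.83 and 6.89 against 1.64 and 1.46 CPM (log2 −2.14 ± 0.26). Lefty, a feedback antagonist of Nodal, was at 8.45 and 9.07 against 1.36 and 2.19 CPM (log2 −2.30 ± 0.23). Wildtype was higher in every library of these 3, as it was for gdf3, also called derriere, at 19.9 and 22.3 against 8.18 and 8.46 CPM (log2 −1.34 ± 0.14). Gdf1, the maternal Vg1 RNA, was at 98.9 and 96.6 CPM in wildtype and 95.8 and 93.0 CPM with Cdkn1a mRNA and was not called. Nodal6 was called lower (log2 −1.17 ± 0.19), but nodal5, nodal6 and the sia genes have near-identical copies whose shared fragments were not counted, so their levels are uncertain. Nodal3.1 is also named as a member of a numbered series of genes. Whether shared fragments were lost for it was not tested.

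The organizer, the dorsal signalling centre of the gastrula, had 12 of 13 tested members lower and none higher, with a median of −2.98. The summed level of the 21 organizer genes in the table was 140.0 and 139.5 CPM in wildtype and 35.5 and 37.9 CPM with Cdkn1a mRNA, against 22.3 and 24.9 CPM in stage 7 wildtype. Admp, an anti-dorsalizing ligand of the BMP family, was at 17.6 and 17.97 CPM in wildtype and at 1.80 and 1.57 CPM with Cdkn1a mRNA (log2 −3.39 ± 0.17, adjusted p = 6.2e-17). Not, a notochord homeobox factor, was at 50.3 and 51.5 against 16.7 and 16.6 CPM (log2 −1.61 ± 0.09, adjusted p = 4.8e-16). Cxcr4, a chemokine receptor, was at 37.8 in both wildtype libraries and at 11.02 and 11.7 CPM with Cdkn1a mRNA (log2 −1.73 ± 0.11). No library of one group reached the level of the other in these 3. Goosecoid (gsc), the textbook organizer gene, was at 1.46 and 1.25 against 0.218 and 0.112 CPM (log2 −2.98 ± 0.57). The exception was hhex, at 0.650 and 0.706 against 0.436 and 0.392 CPM, which was not called (log2 −0.70 ± 0.57, adjusted p = 0.58).

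Of 18 tested transcription factors of mesoderm and endoderm, 10 were lower and none higher, with a median of −1.25. Eomes, a T-box factor of mesendoderm, was at 10.8 and 8.52 CPM in wildtype and at 1.2 and 1.51 CPM with Cdkn1a mRNA (log2 −2.83 ± 0.22, adjusted p = 5.5e-12), and mix1, a homeobox target of Nodal, at 7.59 and 8.42 against 1.2 and 1.63 CPM (log2 −2.50 ± 0.24). Sox17a, an endoderm factor, fell by 1.35 ± 0.24 and snai1, a zinc finger factor of mesoderm, by 0.66 ± 0.11 on the log2 scale. Vegt, the maternal T-box factor of the vegetal pole, stood at 488 and 490 against 461 and 465 CPM and was not called.

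Ventral genes and the response to BMP had 11 of 20 tested members lower, a median of −1.50 and 1 member higher, bambi, a decoy receptor (log2 0.18 ± 0.05). Bambi is named because the count was 1. Ventx2.2, a homeobox repressor of dorsal fate, was at 35.6 and 31.4 CPM in wildtype and at 5.56 and 5.44 CPM with Cdkn1a mRNA (log2 −2.61 ± 0.12, adjusted p = 1.8e-17). Bmp4, the ligand, was at 11.8 and 9.18 against 2.18 and 2.86 CPM (log2 −2.06 ± 0.20), and id3, a direct BMP target, at 39.3 and 36.9 against 12 and 12.1 CPM (log2 −1.66 ± 0.11). The groups were fully apart in these genes. Wnt8a, a ventrolateral Wnt ligand, was lower by 2.99 ± 0.33 on the log2 scale. Ventx genes are close copies of each other, which makes the split between them uncertain.

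In the ectoderm and neural plate list 17 of 32 tested members were lower and none higher, with a median of −1.71. Klf17, a Krüppel-like factor, was at 81.2 and 80.8 CPM in wildtype and 21 and 18.3 CPM with Cdkn1a mRNA (log2 −2.04 ± 0.09, adjusted p = 1.8e-17). Sox2, a neural factor, was at 17.9 and 18.6 against 1.96 and 2.69 CPM (log2 −2.97 ± 0.17, adjusted p = 1e-15). Foxd4l1.1, a forkhead factor of the neural plate, and foxi4.2, a forkhead factor of epidermis, fell by 2.94 ± 0.24 and 2.67 ± 0.18 on the log2 scale. The wildtype libraries lay above the Cdkn1a libraries in each of these genes. Sox3, a neural factor with abundant maternal RNA, was at 599 and 615 against 604 and 614 CPM and was not called. Gdf1, vegt, sox3, hhex and gsc were singled out after their values were seen.

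Called members of the signalling lists were mostly ligands, antagonists and targets. In the fibroblast growth factor (FGF) pathway 5 of 23 tested members were lower: fgf8 and fgf20, ligands, and dusp6, dusp5 and spry1, feedback inhibitors. Dusp6, which removes phosphate from ERK kinases, was at 19.5 and 17.7 CPM in wildtype and at 2.51 and 3.31 CPM with Cdkn1a mRNA (log2 −2.68 ± 0.17, adjusted p = 2.4e-14), and fgf8 was at 5.203 and 4.61 against 0.382 and 0.448 CPM (log2 −3.54 ± 0.36). The sole member higher was fos, an immediate early factor (log2 0.28 ± 0.06), which lost its call without Cdkn1a replicate 1 (0.24) and without wildtype replicate 2 (0.22). In the Wnt pathway 4 of 34 were lower (sfrp2, wnt8a, the antagonist dkk1 and the receptor fzd8) and none higher. Sfrp2 and dkk1 are also counted in the organizer list and wnt8a in the ventral list. Among 23 transducers of Nodal and BMP signals none was lower and bmpr1b, described above, was higher. The called shares were 26.1% of the FGF list, 11.8% of the Wnt list and 4.35% of the transducers, against 6.22% of all tested genes.

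Early epithelial and cell surface genes showed 6 of 24 lower and 2 higher (33.3%, against 6.22% of all tested genes). The lower members include stx19, rhov and lpar6, already described among the largest falls. The list was chosen with earlier results of these data known, so its share describes these members and is not support for the list. The 2 higher were rnd1, a small GTPase, at 21.8 and 22.5 against 31.7 and 33.0 CPM (log2 0.55 ± 0.09), and itga6, an integrin subunit, at 8.62 and 9.45 against 15.8 and 14.9 CPM (log2 0.76 ± 0.13), the latter named because the count was 2. Pluripotency factors had 4 of 20 lower and none higher (20%, against 6.22% of all tested genes). Of these, klf17 and sox2 are also counted in the ectoderm list. The largest fall in the list was that of pou5f3.1. Pou5f3.2, its abundant maternal relative, was at 235 and 233 against 204 and 207 CPM (log2 −0.19 ± 0.05) and lost its call without either Cdkn1a library or without wildtype replicate 1.

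**Figure D3:**
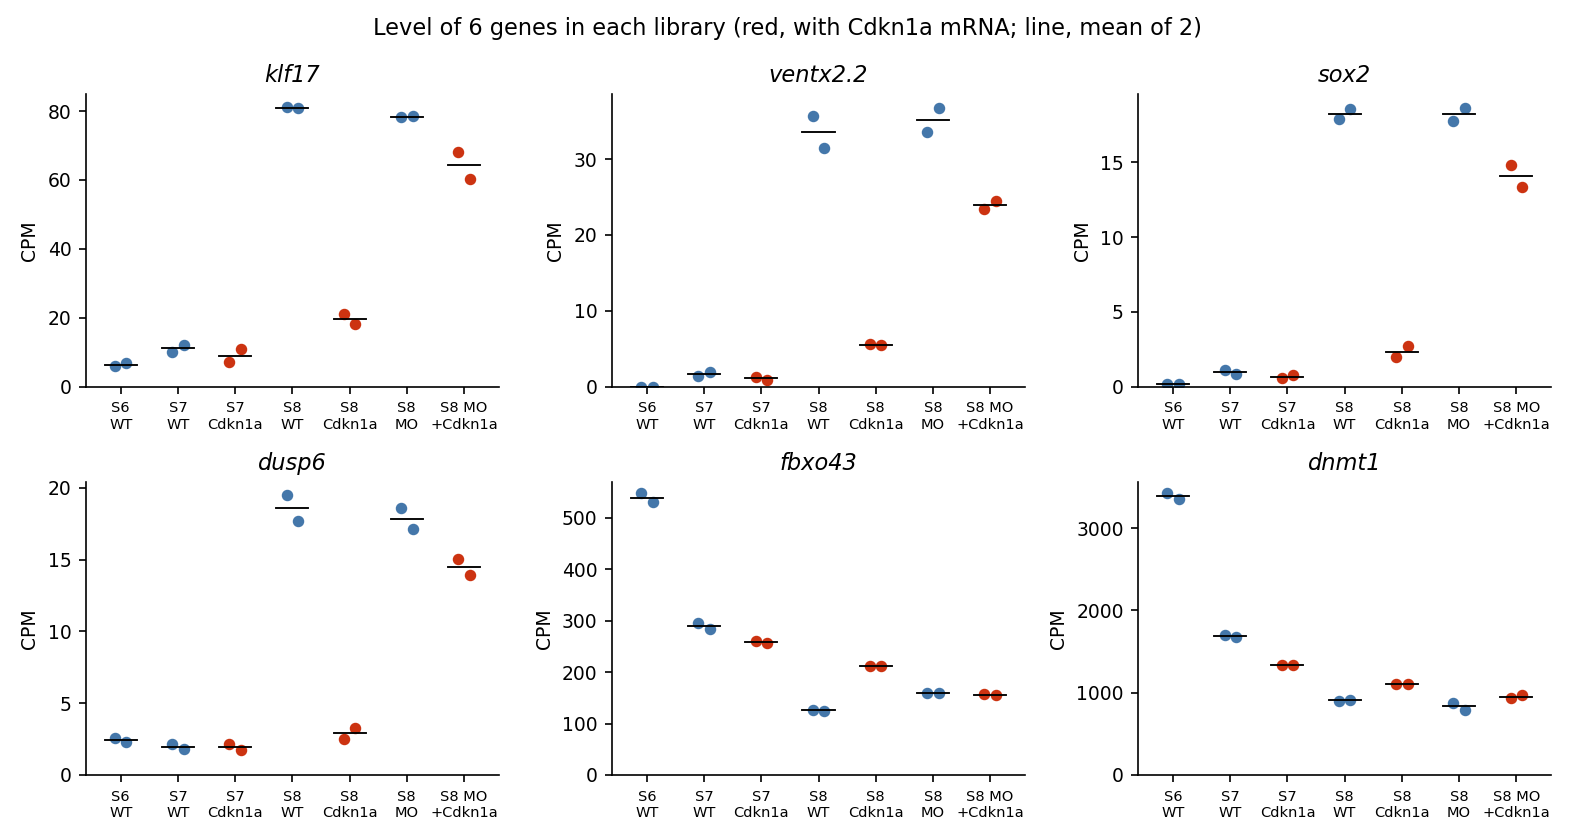
CPM of 6 genes in each of 2 libraries of 7 groups (S6, S7 and S8 are stages; WT, wildtype; MO, E2f1 morpholino), on linear axes from 0, with a line at the mean of the 2 and libraries with Cdkn1a mRNA in red. Klf17, ventx2.2, sox2 and dusp6 were high in stage 8 wildtype and low with Cdkn1a mRNA, at 21 and 18.3 against 81.2 and 80.8 CPM for klf17, while fbxo43 and dnmt1 fell over the wildtype stages and were higher with Cdkn1a mRNA at stage 8.

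Genes of cell division, the process that Cdkn1a acts on, had called changes that were small and upward. Of 51 tested genes of mitosis and chromosome segregation, 10 were higher and none lower in edgeR (19.6%, against 6.22% of all tested genes). Their median was 0.05. At an unadjusted p under 0.05 these counts were 18 and 0, and in DESeq2 9 and 0. Over all 12883 tested genes they were 1201 and 1114, and in DESeq2 243 and 345. Fbxo43, also called Emi2, an inhibitor of the anaphase-promoting complex that holds the egg in meiosis, was at 127 and 125 CPM in wildtype and at 212 CPM in both Cdkn1a libraries (log2 0.75 ± 0.04, adjusted p = 4.5e-16). Top2a, a topoisomerase that untangles chromosomes, was at 233 and 243 against 316 and 325 CPM (log2 0.43 ± 0.05, adjusted p = 1.2e-08). The others were cdca3, aurka, cdca2, aurkb, cep55, ncapd2, plk1 and incenp, by 0.13 to 0.57 on the log2 scale. Fewer were called when a library was left out, with 4 without Cdkn1a replicate 1, 4 without Cdkn1a replicate 2, 3 without wildtype replicate 1 and 7 without wildtype replicate 2. Fbxo43 and top2a kept their calls in each of these fits. Aurka, a mitotic kinase (log2 0.33 ± 0.08), lost its call in all 4, with values of 0.28 to 0.36. Cdca3 and ncapd2 overlap another gene on the same strand, so their counts are uncertain.

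DNA replication genes had 10 of 62 tested members higher and 2 lower (19.35%, against 6.22% of all tested genes), with a median of 0.04. The higher members included cdc45, a subunit of the replicative helicase, at 257 and 254 against 305 and 298 CPM (log2 0.24 ± 0.05), and cdc7, a kinase that fires origins, at 194 and 198 against 225 and 228 CPM (log2 0.21 ± 0.04). Each fit without 1 of the 4 libraries called 5 higher. The lower members were pole, the catalytic subunit of DNA polymerase epsilon, at 65.3 and 74.1 against 55.5 and 58.0 CPM (log2 −0.30 ± 0.06), and mcm3, a helicase subunit. Pole lost its call without Cdkn1a replicate 1 (−0.27) and without wildtype replicate 2 (−0.21).

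Of 28 inhibitors, cyclins and Cdks tested, 3 were higher and 2 lower (17.9%, against 6.22% of all tested genes). The 3 and the 17.9% count cdkn1a, the injected transcript. Besides cdkn1a itself, ccna1, the embryonic cyclin A, rose from 1779 and 1756 to 2022 and 1946 CPM (log2 0.17 ± 0.03, adjusted p = 0.00011). Cks2, a small Cdk-binding protein, was at 35.01 and 40.4 against 55.3 and 57.2 CPM (log2 0.58 ± 0.14) and kept its call only without wildtype replicate 2, with 0.47 to 0.59 in the other 3 fits. Ccne2, a cyclin E (−0.24 ± 0.07), and cables2, a Cdk-binding protein, were lower and lost their calls in all 4 fits. Among 20 E2F, pocket protein and MuvB genes 1 was higher (5.0%, against 6.22% of all tested genes). This was rbbp4, a histone-binding protein (log2 0.17 ± 0.03), which lost its call without Cdkn1a replicate 1 (0.14). In the checkpoint list clspn, which encodes Claspin, the Chk1 adaptor, was at 572 and 561 against 665 and 686 CPM (log2 0.25 ± 0.04, adjusted p = 5.7e-06). Of its 27 members 11.1% were called, and the other 2 calls, cdc25a (0.12 ± 0.04) and atm (−0.33 ± 0.09), were lost in all 4 fits.

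Of 54 tested maternal oocyte and germ plasm genes, 7 were higher and 5 lower (22.2%, against 6.22% of all tested genes), with a median of −0.02. Without 1 library, 4 to 6 were higher and 1 or 2 lower. Grip2, a germ plasm component in the frog, was at 85.5 and 80.6 CPM in wildtype and at 118 and 120 CPM with Cdkn1a mRNA (log2 0.52 ± 0.06, adjusted p = 5.8e-08), although another gene overlaps it on the same strand. Nanos1, a translational repressor of the germ line, was at 34.4 and 36.7 against 48.3 and 50.1 CPM (log2 0.47 ± 0.07), and piwil1, a Piwi protein, at 11.5 and 11.7 against 21.4 and 19.6 CPM (log2 0.82 ± 0.11). In these 3 the groups did not overlap, and no call was lost when a library was left out. All 3 are from the higher side of the list. Among the 5 lower was tdrd6, with a log2 fold change of −0.233 without wildtype replicate 2, and the lowest value in the list was −0.252. Other list members did not rise, such as ddx25 (log2 −0.14 ± 0.05) and dazl (0.01 ± 0.05). Dnmt1, the maintenance DNA methyltransferase, belongs to the DNA replication list and not to this one. It rose from 901 and 913 to 1110 and 1108 CPM (log2 0.29 ± 0.03, adjusted p = 6.9e-08).

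No gene was called by edgeR among 33 histones and their chaperones, 27 apoptosis genes and 41 proteasome and chaperonin genes. DESeq2 also called none in those 3 lists. At an unadjusted p under 0.05 they held 7, 5 and 1 genes, against 2315 of all 12883 tested genes. Of 70 nuclear genes of oxidative phosphorylation 1 was called by edgeR (1.43%). Of 77 ribosomal protein genes 2 were (2.6%), against 6.22% of all tested genes. In the RNA polymerase II list of 71 genes, 5 were higher and 3 lower (11.3%, against 6.22% of all tested genes), among them polr2h, a shared polymerase subunit, at 25.3 and 26.1 against 35.5 and 35.1 CPM (log2 0.46 ± 0.09). Other calls of this list were less stable. In a fit of the stage 8 libraries alone, aff2 (log2 −1.44), gtf2h4 (−0.213), med4 (0.216) and tbpl2 (0.708) lost their calls. The p53 list was tested because mammalian CDKN1A is a p53 target. Of its 31 members cdkn1a, the injected transcript, was higher and 2 were lower. The called share of 9.68% counts cdkn1a, so it is not set against that of all tested genes. Lower were gadd45a, at 6.12 and 5.37 against 2.13 and 2.19 CPM (log2 −1.41 ± 0.22), and gadd45g (−0.63 ± 0.19), which lost its call in all 4 fits. Of 31 stress genes, 2 were higher and 4 lower (19.4%, against 6.22% of all tested genes). Among the lower was xbp1, a factor of the unfolded protein response, at 6.18 and 6.41 against 2.56 and 2.69 CPM (log2 −1.26 ± 0.22).

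Many of the large falls were in genes with no fragment at stage 6. Of the 253 genes lower by 2-fold or more, 141 (55.7%) had no fragment in either stage 6 library, against 171 (1.33%) of all tested genes. They had a median of 3 exon entries in the annotation against 15 for all tested genes, and 43 of them (17%) had a single exon entry against 2.40%. Of the 43 genes higher by 2-fold or more, none lacked fragments at stage 6, and their median number of exon entries was 13. Genes without stage 6 fragments could enter the test only through later libraries, and whether the egg supplies their RNA in another form was not tested.

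Chromosome 6 held 58 of the 253, which is 5.04% of its 1151 tested genes, against 1.04% to 2.76% on the other 9 chromosomes. In an interval chosen after these values were seen, chromosome 6 from 2833045 to 3918557, 37 of 43 tested genes were lower by 2-fold or more and none was called higher. Znf470 (chromosome 6, 2904657 to 2908318, minus strand), a zinc finger gene, was at 72.9 and 75.8 CPM in wildtype and at 9.98 and 8.63 CPM with Cdkn1a mRNA (log2 −3.0 ± 0.10, adjusted p = 7.1e-22). Znf350 (−2.69 ± 0.11) and znf33b (−2.57 ± 0.16) lay in the same interval and 31 of the 37 have no gene symbol. Of 108 tested zinc finger genes on other chromosomes 1 was lower and 4 were higher. In the list of those on chromosome 6, 8 of 25 were lower and none higher. The called shares were 4.63% and 32%, against 6.22% of all tested genes (3.41% lower and 2.81% higher). The copies on chromosome 6 resemble each other, so the levels of single members are uncertain.

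The wildtype time course places these levels, with the caution that it shares libraries with the stage 8 comparison, so that values are only set side by side. The median level of the 253 genes was 0 CPM at stage 6, 0.182 CPM at stage 7 and 2.98 CPM at stage 8 in wildtype. With Cdkn1a mRNA it was 0.150 CPM at stage 7 and 0.442 CPM at stage 8. From stage 7 to stage 8 in wildtype, 247 of the 253 were called higher (19.1% of all tested genes were) and none lower. In 205 of the 253 the mean with Cdkn1a mRNA at stage 8 lay between the stage 7 and stage 8 wildtype means, and in 48 it lay at or below the stage 7 mean. Of the 57 developmental genes called lower, 53 lay between. Set directly against stage 7 wildtype, a comparison added after seeing the data, the stage 8 Cdkn1a libraries had 27 of the 93 developmental genes higher (14.6% of all tested genes were) and 4 lower (13.2%). Between the Cdkn1a libraries of stage 8 and those of stage 7, also added after seeing the data, 19 of the 93 were higher (1.65%) and none was lower (0.761%). Klf17 for example went from 10.2 and 12.1 CPM at stage 7 to 81.2 and 80.8 CPM at stage 8 in wildtype, and from 7.27 and 10.8 to 21 and 18.3 CPM with Cdkn1a mRNA.

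Genes were also sorted by the wildtype step from stage 6 to stage 7, which shares no library with the stage 8 comparison. Of 739 genes that rose by 2-fold or more in that step (5.74%), 104 were lower and 13 higher with Cdkn1a mRNA at stage 8, with a median of −0.07. Of the 135 that rose by 4-fold or more, 79 were lower and 4 higher, with a median of −1.40. Of 62 that fell by 2-fold or more (0.481%), 9 were higher and 3 lower, with a median of 0.06. For comparison, stage 8 falls were called in 3.41% of the 12883 genes and rises in 2.81%. Among the 135 genes, 48 (35.6%) had no fragment at stage 6, against 1.33% of all tested genes. Such genes could pass the filter only through later libraries, so the counts for the 135 are partly shaped by the filter.

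At stage 7 few developmental genes were called with Cdkn1a mRNA. That comparison shares no library with the stage 8 one, and it called 612 of 12883 genes (4.75%), 249 higher (1.93%) and 363 lower (2.82%), of which 7 (0.0543%) and 8 (0.0621%) reached 2-fold. Of the 93 developmental genes, 2 were higher and 1 lower, with a median of 0.00. The 11 Nodal, Vg1 and Siamois genes had a median of −0.34 (−0.21 with the gene without fragments in a group at its bound) and 10 negative values. None of these 11 was called by edgeR or DESeq2, and 5 were lower and 0 higher at an unadjusted p under 0.05. Of the 37 genes of the chromosome 6 interval lower by 2-fold or more at stage 8, 6 were called lower at stage 7. The median of the 37 at stage 7 was −0.60, and they were picked for their stage 8 values. Of the 253 genes, 8 were lower and none higher, with a median of −0.22. Most of the 253 were close to 0 in stage 7 wildtype, so a fall of the stage 8 size was not detectable there at this depth. The stage 7 calls rest on both libraries of each group: without 1 library, 11 to 59 genes were higher and 32 to 98 lower.

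The difference between the stages was tested as an interaction, which shares libraries with each single comparison. The Cdkn1a effect was lower at stage 8 than at stage 7 for 314 genes (2.44%) and higher for 471 (3.66%). It was lower for 22 of the 93 developmental genes and higher for 1. Without 1 of the 8 libraries, 12 to 18 of them were lower and none higher. For klf17 the difference was −1.74 ± 0.17, for dusp6 −2.65 ± 0.34 and for id3 −1.81 ± 0.19. These genes were picked for their values in the stage 8 libraries, so their differences are given as a description.

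**Figure D4:**
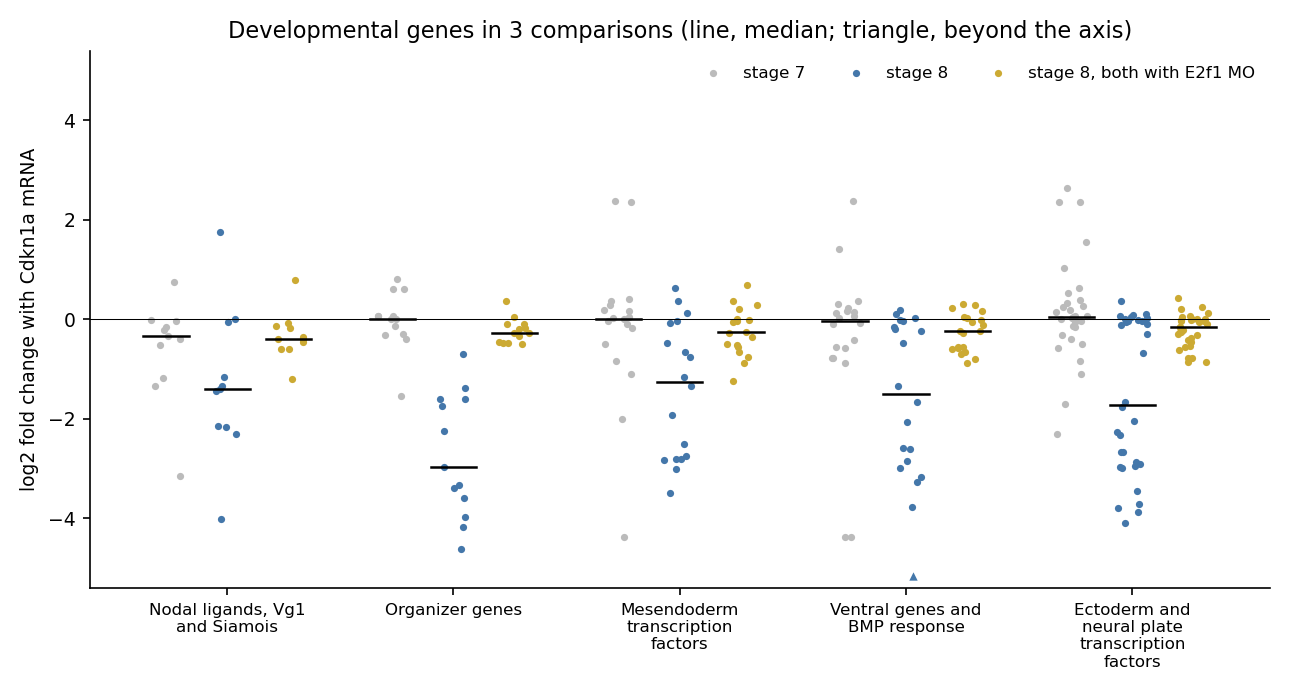
Log2 fold change with Cdkn1a mRNA of the 93 tested members of 5 developmental lists in 3 comparisons (grey, stage 7; blue, stage 8; yellow, stage 8 with the E2f1 MO in both groups), with a line at each median and a triangle for a value beyond the axis. At stage 8 the list medians lie between −2.98 and −1.25, and the values at stage 7 scatter around a median of 0.00.

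For cell division genes the calls at stage 7 were mostly falls. At stage 7, 13 of the 51 mitosis genes were lower with Cdkn1a mRNA and 1 higher, with a median of −0.05, and without 1 library 3 to 5 were lower. Called falls made up 2.82% of the 12883 genes at this stage, and called rises 1.93%. The interaction was positive and called for 17 of the 51 and negative and called for none, and for 8 to 13 without 1 library. Of the 12883 genes, 3.66% had a called positive interaction and 2.44% a called negative one. For top2a, stage 7 wildtype was at 484 and 514 CPM and stage 7 Cdkn1a mRNA at 402 and 401 CPM (log2 −0.31 ± 0.05, adjusted p = 6.3e-05). Its difference between stages was 0.74 ± 0.06. Dnmt1 was at 1699 and 1672 against 1341 and 1338 CPM at stage 7 (log2 −0.33 ± 0.03, adjusted p = 1.2e-07), with a difference between stages of 0.62 ± 0.05. Grip2 was at 152 and 151 against 116 and 112 CPM at stage 7 (log2 −0.41 ± 0.06), with a difference of 0.93 ± 0.08. Fbxo43 stood at 296 and 283 against 260 and 256 CPM at stage 7 (log2 −0.17 ± 0.04, adjusted p = 0.012), a call kept in 1 of 4 fits without a library. Its difference between stages was 0.92 ± 0.06. Top2a, dnmt1, grip2 and fbxo43 were named for their stage 8 values, so their differences between stages are given as a description. In wildtype these RNAs declined, top2a from 1004 and 988 CPM at stage 6 to 484 and 514 at stage 7 and 233 and 243 at stage 8. With Cdkn1a mRNA the level of top2a was lower than wildtype at stage 7 and higher at stage 8.

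**Figure D5:**
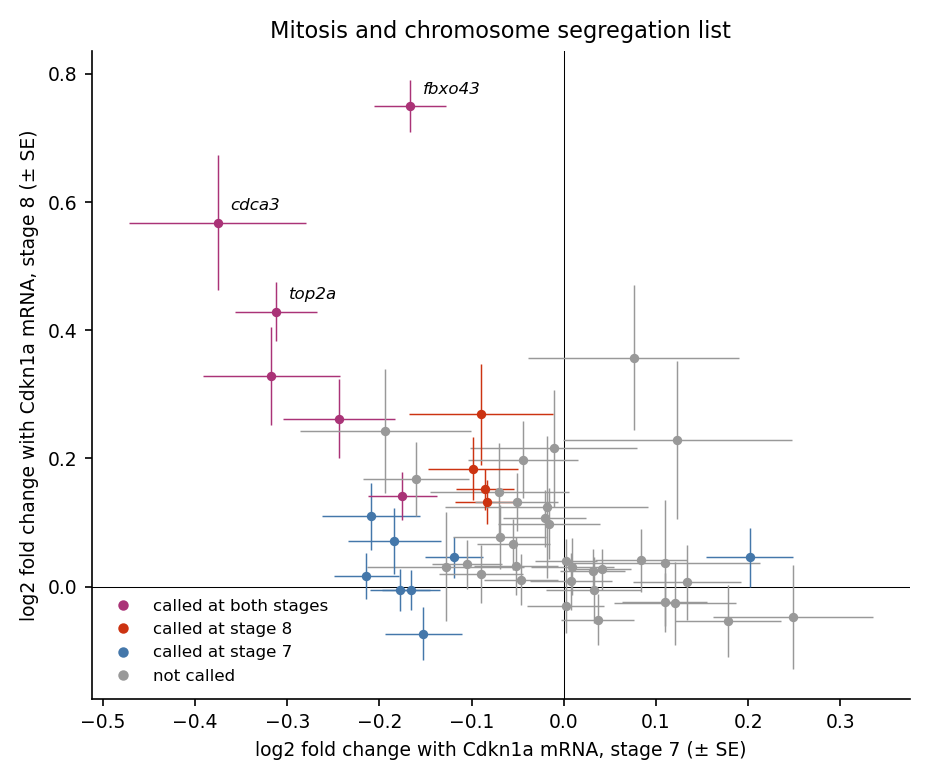
Each point is 1 of 51 mitosis genes, with its log2 fold change with Cdkn1a mRNA at stage 7 (horizontal, ± SE) and at stage 8 (vertical, ± SE), coloured by the stage at which it was called. Called genes lie mostly in the upper left, lower at stage 7 and higher at stage 8, with fbxo43 at −0.17 and 0.75 and top2a at −0.31 and 0.43.

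With the E2f1 MO in both groups, the median of the developmental genes with Cdkn1a mRNA at stage 8 was −0.23, against −1.66 without it. This comparison shares no library with the main one and uses the MO pair that stood apart. It called 234 genes (1.82%), 146 higher (1.13%) and 88 lower (0.683%). Without MO replicate 1 it called 1500 higher and 843 lower, and without MO replicate 2, 372 and 217. The cdkn1a level was 239 and 238 CPM in these Cdkn1a libraries, against 284 and 288 CPM without the MO. Of the 37 genes of the chromosome 6 interval lower by 2-fold or more without the MO, 24 were called lower with it. Their median with the MO was −0.66. These 37 are part of the 253 genes, so those 24 calls are counted again in the total for the 253 below. Of the 93 developmental genes 6 were lower and none higher, with a median of −0.23. The median ran from −0.293 to −0.207 over the 4 fits without a library. Without MO replicate 1 these were 17 lower and 1 higher, and without MO replicate 2, 8 lower and 3 higher. The 2 fits that left out a library with the MO and Cdkn1a mRNA called 2 and 3 lower. Of the 253 genes 40 were lower and 1 higher, with 56 and 42 lower without MO replicates 1 and 2, and the median was −0.44 (−0.414 and −0.469 without MO replicates 1 and 2), against 0.01 over all tested genes.

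Single genes show the size of the difference. Klf17 was at 78.2 and 78.5 CPM with the MO and at 68.2 and 60.4 CPM with the MO and Cdkn1a mRNA, and was not called by edgeR (log2 −0.29 ± 0.08, adjusted p = 0.071), but it was called without MO replicate 1 (adjusted p = 0.0088) and without MO replicate 2 (adjusted p = 0.039), with −0.383 to −0.207 over the 4 fits. Sox2 was at 17.8 and 18.7 against 14.8 and 13.4 CPM (log2 −0.38 ± 0.13, adjusted p = 0.15), with −0.452 to −0.305 and no call in the 4 fits without a library. Ventx2.2 was at 33.6 and 36.7 against 23.5 and 24.5 CPM and was called (log2 −0.55 ± 0.10, adjusted p = 0.00096), as was id3 (−0.56 ± 0.10, adjusted p = 0.00044), both in each fit without a library (−0.622 to −0.487 and −0.662 to −0.471). Neither was called in the fit of only the groups compared (adjusted p = 0.24 for each). The MO libraries were above those with the MO and Cdkn1a mRNA in all 4 genes.

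The difference between the comparisons was tested as an interaction, which includes the 4 stage 8 libraries. The genes named here were picked for their values in those libraries, so their differences are given as a description. The Cdkn1a effect with the MO was higher, that is less negative or more positive, for 496 genes (3.85%) by edgeR and lower for 319 (2.48%). It was higher for 41 of the 93 developmental genes and lower for none. Without MO replicate 1 these were 45 higher and 4 lower, and without MO replicate 2, 41 and none. Without any 1 of the other 6 libraries 33 to 37 were higher and none lower. For klf17 the difference was 1.75 ± 0.13, for sox2 2.59 ± 0.22 and for sbk1l, which encodes a putative kinase, 3.0 ± 0.16. Fbxo43 was at 159 and 160 CPM with the MO and 157 and 156 CPM with the MO and Cdkn1a mRNA, with a difference of −0.78 ± 0.06. The lower cdkn1a level, the presence of the MO and a second injected reagent cannot be told apart in this comparison.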

How the data were processed

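RNA of whole embryos was sequenced as stranded, polyadenylated libraries, per the labels' protocols. The authors deposited raw fragment counts per gene, which the submitters' processing notes credit to STAR 2.7.0e and featureCounts 2.0.1. Fragments that map to several places were not counted, as the option to count them is not set in the command in the file headers. From these counts, genes were filtered with filterByExpr, scaled by the TMM method and tested with edgeR 4.0.16 (quasi-likelihood, robust) in R 4.3.3, with 13 group means over all 26 libraries and 13 residual degrees of freedom. The p-values were adjusted by Benjamini-Hochberg over 12883 genes and called under 0.05, and errors are SE of log2 fold changes. A comparison with stage 7 wildtype was added after seeing the data. Members and gene lists were chosen with earlier results of these data known. Genes named are cdkn1a and e2f1, the 12 largest called rises and falls with a symbol and at least 2 CPM in the higher group and 1 direction in every pairing of libraries, up to 6 members of smallest p per list, and the 6 largest differences of effects in each direction; other genes were named after their values were seen. A gene that the rule names is not reported here. Tested on simulated counts for the stage 8 comparison, the fit called 83.6% of 1.5-fold, 94% of 2-fold and 97% of 4-fold changes, and 7 of 12599 unchanged genes. Changes were simulated only in genes above a minimum count in stage 8 wildtype. The simulated spread followed the trend with mean level and held no spread particular to a gene, so these rates need not hold for the real counts. Alternatives were DESeq2 1.42.0, other size factors, no filter, fewer groups in the fit, a replicate block and leaving out each library.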

Additional observations from a re-analysis of the deposited data

Results flagged for a closer look

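The effect of Cdkn1a mRNA differed between stages, by the edgeR interaction test, for 785 genes, of which 471 had a higher effect at stage 8 than at stage 7 and 314 a lower one. Among named genes with a higher effect at stage 8, the log2 difference was 1.85 for adcy8 (an adenylate cyclase), 1.5 for chn2, 1.74 for dmbx1 (a homeobox factor), 1.55 for neurog1, 1.5 for slc35g1 and 1.63 for tcp10l2. Among those with a lower effect it was −3.02 for eomes, −3.96 for foxd4l1.1, −4.09 for grhl3 (an epidermal factor), −6.42 for irx1, −2.77 for prdm16 (a zinc finger factor) and −11.1 for tat. These differences rest on few stage 7 fragments and are uncertain in size: over the 8 fits without a library irx1 ranged from −9.58 to −5.43, foxd4l1.1 from −7.65 to −3.11 and tat from −13.3 to −6.6. Tat had no count in stage 7 wildtype, so its fitted difference is no bound. Chn2, dmbx1, irx1 and prdm16 kept their calls in all 8 fits that left out a library. The others lost them in at least 1 fit, eomes and tat only without stage 7 Cdkn1a replicate 2, with a log2 difference of −2.85 for eomes.

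The effect also differed with and without the E2f1 MO at stage 8, for 815 genes, 496 with a higher effect with the MO and 319 with a lower one. The log2 difference was 4.52 for atp1b2, 4.52 for chrd.1, 4.51 for inpp5j (a lipid phosphatase), 4.38 for pou5f3.1, 4.38 for stx19 and 6.34 for tat. It was −2.19 for chn2, −3.03 for lad1 (ladinin), −3.0 for plekhn1, −2.43 for rab3il1 and −2.24 for socs2. Rab3il1 lost its call in 4 of the 8 fits without a library and socs2 in 7, with a value of −1.12 without MO replicate 1, and the other 9 kept theirs. With Cdkn1a mRNA alone tat had 1 fragment and chrd.1 had 3, so their fitted differences are no bounds. Over the 8 fits tat ranged from 5.52 to 8.6, chrd.1 from 4.15 to 5.03, atp1b2 from 3.94 to 5.45 and stx19 from 3.8 to 5.43. Inpp5j was at 7.48 and 7.66 CPM in wildtype, 17.6 and 19.1 CPM with Cdkn1a mRNA, 0.183 and 0.190 CPM with the MO and 10.54 and 10.9 CPM with both, so its difference turns on its level with the MO alone.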

How the results depend on the processing

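At stage 8 the 362 higher and 439 lower calls kept within 1.5 times under DESeq2 (243 and 345), no filter (365 and 523) and median-of-ratios size factors (329 and 450). A fit of only the stages compared gave 166 higher calls, and a fit of only the groups compared 555 higher and 685 lower. Without 1 library, 164 to 176 were higher and 240 to 303 lower, and at 2-fold or more 30 to 37 and 179 to 213. At stage 7, where the fit to all libraries called 249 and 363, only the stages gave 810 and 1082, only the groups 803 and 1045, and leaving out 1 library 11 to 59 and 32 to 98. With the MO, where it called 146 and 88, no filter gave 360 and 143, only the stages 72 and 54, only the groups 3 and 0 (DESeq2 on all libraries called 114 and 80), and leaving out 1 library 55 to 1500 and 38 to 843. For the difference between stages, only the groups gave 951 higher and 805 lower, and leaving out 1 library 194 to 278 and 163 to 255. For the difference with the MO, no filter gave 746 higher, only the stages 287 and 97, only the groups 186 and 44, and leaving out 1 library 308 to 1708 and 156 to 1025, with both highest values without MO replicate 1. Genes that rose from stage 6 to 7 had a median of −0.07 at 2-fold and −1.4 at 4-fold. Fits of fewer groups and fits without 1 library hold fewer libraries, while the other settings hold all of them. The cause of these shifts was not tested.

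Libraries share replicate numbers across groups, and same-numbered libraries were not shown to pair: over 78 pairs of groups the correlation ran from −0.25 to 0.21, with 13 over 0.1. The replicate block gave 379 higher and 445 lower calls at stage 8, 266 and 405 at stage 7, 150 and 103 with the MO, 510 and 333 for the difference between stages, and 500 and 336 for the difference with the MO. Over 198 named genes and 11 settings at stage 8 no called value among 2176 changed sign, 191 lost a call, in 48 genes, and 40 gained one. Promoter motifs were not run, as no sequences were used here. Genes at a few fragments per library limit what stage 7 can show.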

Other observations

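Of 19 tested innate immune genes 2 were higher and none lower at stage 8 in edgeR (10.53%, against 6.22% of all tested genes). DESeq2 gave the same counts. At an unadjusted p under 0.05 they were 3 and 0, against 1201 and 1114 of all 12883 tested genes. Irf1, an interferon regulatory factor, was at 0.271 and 0.434 CPM in wildtype and at 1.85 and 2.13 CPM with Cdkn1a mRNA (log2 2.47 ± 0.48), and it kept its call in all 4 fits without a library. Its levels in stage 7 wildtype, 1.02 and 0.607 CPM, lay between those of the 2 stage 8 groups. Nfkb2, an NF-kappaB subunit, was at 41.1 and 41.4 against 46.4 and 51.6 CPM (log2 0.25 ± 0.06) and kept its call in 1 of 4. Of 54 chromatin genes 2 were higher and 2 lower (7.41%, near the 6.22% of all tested genes). Hdac2, a histone deacetylase, was at 121 and 131 against 149 and 148 CPM (log2 0.23 ± 0.05), and kdm5c, a histone demethylase, at 324 and 326 against 287 and 280 CPM (log2 −0.20 ± 0.05), each kept in 3 of 4.

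Genes that clear maternal RNA had 3 of 43 tested members higher and 1 lower (9.3%, against 6.22% of all tested genes). Btg4, an adaptor of the deadenylase complex, was at 133 and 145 against 204 and 189 CPM (log2 0.50 ± 0.11) and kept its call in 1 of 4 fits without a library. Zfp36l2.1, which encodes a protein that binds AU-rich RNA, was at 332 and 336 against 372 and 369 CPM (log2 0.15 ± 0.04) and kept its call in 0 of 4 fits without a library. Atf4, a stress-response factor, was at 8.51 and 8.63 against 4.58 and 4.596 CPM (log2 −0.90 ± 0.18) and kept its call in all 4. The 43 genes higher by 2-fold or more had a median level of 1.15 CPM in stage 7 wildtype. At stage 8 it was 0.570 CPM in wildtype, 2.27 CPM with Cdkn1a mRNA, 0.996 CPM with the MO and 1.296 CPM with both. These genes were picked for their values in the stage 8 wildtype and Cdkn1a libraries, so the levels in those groups are partly fixed by that choice.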
